A study of Mus musculus with 10 samples.

Results

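The genes described here are 38 genes of skeletal muscle, given by name in a fixed list and matched by symbol to the deposited gene table of a brown adipose tissue (BAT) RNA-Seq study. All 38 were found among the 24454 genes listed in each count file, and all 38 are among the 13568 genes with enough counts to be tested. They comprise 12 isoforms typical of fast fibres, 7 isoforms typical of slow fibres, 10 filament and Z-disc genes that both fibre types use, 3 genes of calcium release and 6 genes of muscle energy metabolism. BAT was sequenced in 5 replicates from control mice and 5 from Stat5Adipoq mice, with 1 library for each replicate. All libraries of both genotypes are labelled basal. All mice were males on a C57BL/6N background, about 2 months old and fed ad libitum. Stat5Adipoq mice lack Stat5 in adipocytes through a Cre driven by the Adipoq promoter, so cells of BAT that are not adipocytes keep the gene, while controls carry the floxed Stat5 alleles without Cre according to the methods and are labelled wild type.

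Skeletal muscle is built of sarcomeres, in which myosin filaments pull on actin filaments. Fast and slow fibres carry different genes for the same parts, above all the myosin heavy chain, the myosin light chains and the 3 troponin subunits. The heavy chains Myh4 (type IIb), Myh1 (type IIx) and Myh2 (type IIa) mark fast fibres from the most glycolytic to the most oxidative, and Myh7 marks slow fibres and heart. Brown adipocytes arise from precursors related to those of muscle, but mature BAT is not a contractile tissue and lies against muscle in the body.

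The labels were first checked on the deleted genes. Stat5a was at 86.9 to 130 CPM (counts scaled to library size, with TMM factors) in controls and at 15.8 to 20.7 CPM in Stat5Adipoq libraries, and Stat5b was at 76.6 to 91.9 CPM and 21.03 to 22.9 CPM. The libraries held 8488129 to 19514904 counts, with control replicate 3 the shallowest. Summed markers of brown adipocytes were at 19423 to 30618 CPM in controls and 21362 to 26847 CPM in Stat5Adipoq libraries, so every library had the defining transcripts of the labelled tissue. One library stood apart for the muscle genes. Control replicate 3 had the highest CPM of all 10 libraries for all 38, and it had the highest value for 18.6% of all tested genes. The 38 genes were chosen with earlier results of these data known, so this is a description and no test.

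The start regions of the heavy chain genes, of skeletal actin Acta1 and of myoglobin Mb are shown because the heavy chains distinguish fibre types, Acta1 has the highest level per length in control replicate 3, and Mb followed another course over the libraries than the rest. Each window covers 250 bases before and 50 bases after a gene start in RefSeq for GRCm38.p6, read 5′ to 3′ on the gene's strand. Capitals mark the E-box form CAGCTG, the MEF2 consensus and the TATA motif TATAAA, each searched on both strands. Myh2 lies at chr11:67171027-67197517, Myh1 at chr11:67200102-67224577 and Myh4 at chr11:67237812-67260447, next to each other on the plus strand, while Myh7 is at chr14:54970684-54994626, Acta1 at chr8:123891758-123894775 and Mb at chr15:77015487-77050668, all on the minus strand.
Myh2, chr11:67170777-67171076, plus strand: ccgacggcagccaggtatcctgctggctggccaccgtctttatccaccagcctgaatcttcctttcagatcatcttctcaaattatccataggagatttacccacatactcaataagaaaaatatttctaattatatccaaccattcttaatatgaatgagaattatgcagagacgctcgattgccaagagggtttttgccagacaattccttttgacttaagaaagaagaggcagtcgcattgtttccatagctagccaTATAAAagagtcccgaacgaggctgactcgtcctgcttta
Myh1, chr11:67199852-67200151, plus strand: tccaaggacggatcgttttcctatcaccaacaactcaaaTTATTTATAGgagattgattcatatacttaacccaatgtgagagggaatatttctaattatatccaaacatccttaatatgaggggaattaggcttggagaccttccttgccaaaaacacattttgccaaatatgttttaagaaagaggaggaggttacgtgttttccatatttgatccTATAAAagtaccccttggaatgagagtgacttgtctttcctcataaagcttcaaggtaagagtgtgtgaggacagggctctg
Myh4, chr11:67237562-67237861, plus strand: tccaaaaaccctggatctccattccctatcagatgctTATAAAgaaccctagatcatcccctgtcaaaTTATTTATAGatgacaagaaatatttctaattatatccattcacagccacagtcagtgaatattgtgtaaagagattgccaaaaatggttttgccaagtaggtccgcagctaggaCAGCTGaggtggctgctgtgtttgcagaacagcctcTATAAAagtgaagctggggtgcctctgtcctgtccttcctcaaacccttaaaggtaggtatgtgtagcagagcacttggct
Myh7, chr14:54994577-54994876, minus strand: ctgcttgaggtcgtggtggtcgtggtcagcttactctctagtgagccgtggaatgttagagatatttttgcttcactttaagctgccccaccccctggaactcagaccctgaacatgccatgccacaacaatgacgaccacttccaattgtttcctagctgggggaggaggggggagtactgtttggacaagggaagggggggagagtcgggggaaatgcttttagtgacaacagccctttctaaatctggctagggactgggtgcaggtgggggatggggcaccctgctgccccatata
Acta1, chr8:123894726-123895025, minus strand: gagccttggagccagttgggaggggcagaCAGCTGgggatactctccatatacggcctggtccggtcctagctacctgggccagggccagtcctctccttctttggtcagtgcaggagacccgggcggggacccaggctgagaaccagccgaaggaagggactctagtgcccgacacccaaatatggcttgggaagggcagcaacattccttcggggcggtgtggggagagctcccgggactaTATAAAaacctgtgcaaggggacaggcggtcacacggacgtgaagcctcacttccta
Mb, chr15:77022738-77023037, minus strand: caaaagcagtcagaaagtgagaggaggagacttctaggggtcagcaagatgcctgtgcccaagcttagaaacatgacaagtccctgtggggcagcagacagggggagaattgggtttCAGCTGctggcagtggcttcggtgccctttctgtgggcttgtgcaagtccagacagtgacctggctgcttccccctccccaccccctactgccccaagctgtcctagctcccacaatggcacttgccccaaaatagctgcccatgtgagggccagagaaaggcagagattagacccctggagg

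The Myh1 and Myh4 windows both held the same 10 bases matching the MEF2 consensus, TTATTTATAG, starting 211 and 182 bases before the start, and these bases contain TATAAA on the opposite strand. Both also held TATAAA on the gene's strand close to the start, beginning 32 bases before it in Myh1 and 31 bases before it in Myh4. In Myh2 the motif lay 10 bases after the annotated start, and the Myh7 window shown held no motif searched for. Acta1 had CAGCTG 221 bases before the start, Myh4 had it 67 bases before and the Mb window shown had it 133 bases before. The Mb window at the outer end of the gene span, chr15:77050619-77050918, held no motif searched for. A further one at chr15:77022678-77022977 overlaps the window shown and holds the same CAGCTG. Of the 38 genes, 30 had at least 1 window in the RefSeq table. CAGCTG was found for 16 of the 30, or 53.3%, against 16.3% of the 32851 promoters of mouse genes. The MEF2 consensus was found for 6, or 20%, against 3.19% of promoters, and TATAAA for 7, or 23.3%, against 13.6%. The STAT5 core TTCNNNGAA was found for Atp2a1 alone, 3.33% against 8.30% of promoters. A gene counted if any of its windows matched, while the shares compared with are per promoter, so the units differ. Of the 37 windows of the 30 genes, 19 held CAGCTG, 6 the MEF2 consensus, 7 TATAAA and 1 the STAT5 core. A match describes the letters only and is not evidence of binding.

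The 38 genes together took 0.725% of all counts in control replicate 3. The next library was control replicate 5 with 0.0708%, and the remaining 8 libraries held between 0.00881% and 0.0194%. In CPM the sums were 191, 109, 7394, 86.9 and 693 in control replicates 1 to 5 and 173, 88.8, 149, 159 and 128 in Stat5Adipoq replicates 1 to 5. The 3 controls without the high values thus lay in the range of the Stat5Adipoq libraries or just outside it. For 34 of the 38 genes more than 50% of the CPM summed over all libraries came from control replicate 3, which held for 1.02% of all tested genes. The median share over the 38 genes was 87.2%, with the lowest for Myl3 at 19.3% and the highest for Myh2 at 95.6%. Control replicate 5 came second for 30 of the 38 genes, that is for all but Myh2, the slow isoforms Myh7, Myl2, Myl3, Tnnt1, Tnni1 and Tnnc1, and Mb. In these bulk libraries more muscle cells and more muscle RNA per cell cannot be told apart.

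**Figure D1:**
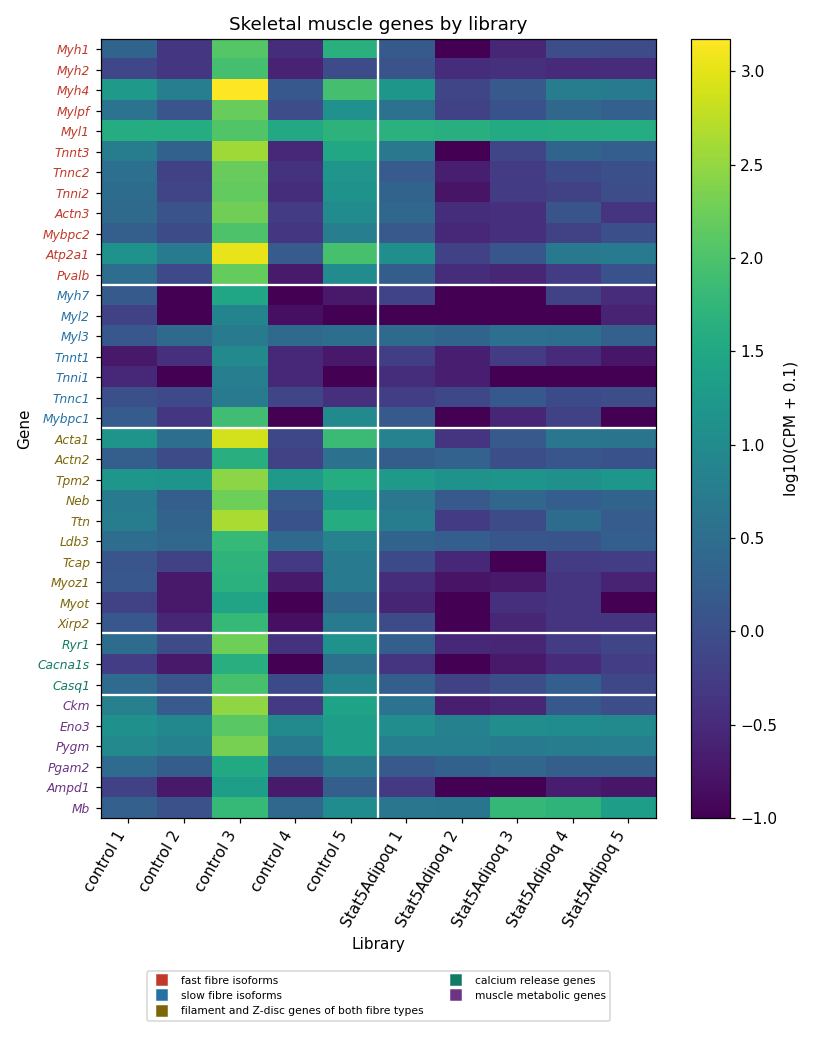
Level of each of the 38 genes (rows, coloured and separated by group) in each library (columns, controls left of the white line), as log10(CPM + 0.1). Control replicate 3 is the brightest column in all 38 rows, control replicate 5 is second in 30 of them, and Myl1, Tpm2, Eno3, Pygm and Myl3 keep a visible level in every library.

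Among the heavy chains, Myh4 had 18.0, 5.90, 1496, 1.31 and 87.5 CPM in control replicates 1 to 5 and 16.3, 0.641, 1.38, 5.51 and 5.27 CPM in Stat5Adipoq replicates 1 to 5. Control replicate 3 was 278 times above the median of the 8 libraries other than control replicates 3 and 5, and the genotypes overlapped. Myh1 had 2.11, 0.363, 118, 0.253 and 43.8 CPM in controls and 1.42, 0, 0.185, 0.881 and 0.798 CPM in Stat5Adipoq libraries. Control replicate 5 stood higher for this gene, relative to control replicate 3, than for any other fast isoform apart from Myl1. Myh2 had 0.670, 0.363, 88.5, 0.152 and 0.822 CPM in controls and 1.09, 0.256, 0.277, 0.220 and 0.240 CPM in Stat5Adipoq libraries. It was high in control replicate 3 alone, and control replicate 5 lay below Stat5Adipoq replicate 1. Myh7 had 15, 0, 246, 0 and 1 counts in controls and 7, 0, 0, 5 and 3 counts in Stat5Adipoq libraries. The slow chain was thus also high in control replicate 3 alone, at a level far below the fast chains.

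The composition of the heavy chain counts differed between the 2 high libraries. In control replicate 3, Myh4 made up 86.4% of the 14402 counts on the 4 heavy chain genes (95% Wilson interval 85.8 to 86.9), Myh1 6.79% (6.39 to 7.21), Myh2 5.11% (4.76 to 5.48) and Myh7 1.71% (1.51 to 1.93). In control replicate 5, Myh4 made up 66.2% of 1448 counts (63.7 to 68.6), Myh1 33.1% (30.8 to 35.6), Myh2 0.622% (0.327 to 1.18) and Myh7 0.0691% (0.0122 to 0.390). All 4 pairs of intervals lie apart, so the mix of fibre isoforms in these libraries was not the same beyond counting error, which is all the intervals cover. Control replicate 5 had the larger share of IIx chain, and control replicate 3 had the larger shares of IIb, IIa and slow chain. Control replicate 1 and Stat5Adipoq replicate 1 held 232 heavy chain counts each, with 81.0% (75.5 to 85.6) and 84.1% (78.8 to 88.2) Myh4 and 6.47% (3.96 to 10.4) and 3.02% (1.47 to 6.10) Myh7. Their intervals overlap each other for these genes. The remaining 6 libraries held 14 to 82 counts on the 4 genes, too few to compare their compositions.

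Part of these counts is uncertain because the fast heavy chains are alike in sequence. Of the 50-base words of the Myh1 exons, 19.7% also occur in Myh2 and 10.5% in Myh4, whereas 0.166% occur in Myh7. Shares per exon length left the order of the isoforms as it was in both libraries, with Myh4 at 87.9% in control replicate 3 and 67.4% in control replicate 5.

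**Figure D2:**
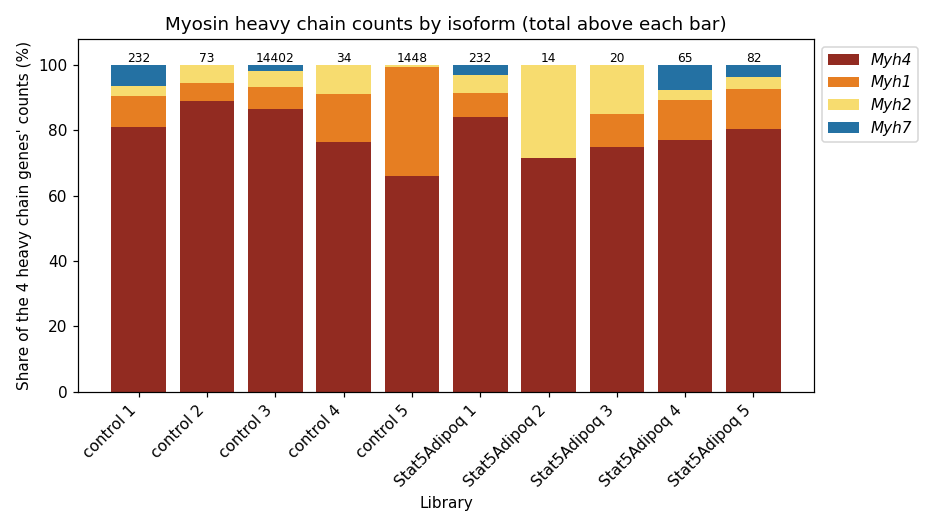
Share of each isoform in the counts of the 4 heavy chain genes (vertical axis, %) in each library, with the number of counts above the bar. Myh4 is the largest part of every bar, and control replicate 5 has 33.1% Myh1 against 6.79% in control replicate 3, while bars over fewer than 100 counts carry wide intervals.

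The fast troponins, the subunits that make the thin filament respond to calcium, followed Myh4. Tnnt3, which ties the complex to tropomyosin, had 5.55, 1.91, 382, 0.202 and 32.0 CPM in controls and 4.53, 0, 0.646, 2.09 and 1.68 CPM in Stat5Adipoq libraries. Tnnc2, the calcium-binding subunit, had 3.25, 0.544, 162, 0.303 and 15.1 CPM in controls and 1.51, 0.128, 0.461, 0.771 and 0.958 CPM in Stat5Adipoq libraries. Tnni2, the inhibitory subunit, had 2.87, 0.635, 147, 0.253 and 14.0 CPM in controls and 2.01, 0.0641, 0.461, 0.551 and 0.878 CPM in Stat5Adipoq libraries. For each of the 3 the order was control replicate 3, then control replicate 5, then control replicate 1, with control replicate 4 among the lowest libraries of either genotype. Tnnc2 shares 55.0% of its words with Ube2c, a gene on the opposite strand, which had 1 to 11 counts in any library.

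Their slow partners were high in control replicate 3 and not in control replicate 5. Tnnt1 had 1, 3, 79, 4 and 1 counts in controls and 6, 2, 5, 2 and 1 counts in Stat5Adipoq libraries. Tnni1 had 2, 0, 50, 4 and 0 counts in controls and 3, 2, 0, 0 and 0 counts in Stat5Adipoq libraries. Tnnc1, the calcium-binding subunit of slow fibres and heart, had 10, 8, 45, 13 and 3 counts in controls and 6, 11, 14, 7 and 11 counts in Stat5Adipoq libraries. In counts, control replicate 5 was at or below every other library for all 3 genes, although its fast troponins were second highest. The slow subunit made up 2.42% of the Tnnt1 and Tnnt3 counts in control replicate 3 (1.95 to 3.01) and 0.285% in control replicate 5 (0.0503 to 1.60). For Tnni1 with Tnni2 the slow share was 3.93% in control replicate 3 (2.997 to 5.15) and 0% of 153 counts in control replicate 5 (up to 2.45). For Tnnc1 with Tnnc2 it was 3.23% in control replicate 3 (2.42 to 4.30) and 1.79% in control replicate 5 (0.609 to 5.12), and these intervals overlap.

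The myosin light chains set the neck of the motor. Mylpf, the fast regulatory light chain, was at 158 CPM in control replicate 3, 12.9 CPM in control replicate 5 and 0.859 to 3.83 CPM in the other controls, with 0.577 to 3.69 CPM in Stat5Adipoq libraries. Myl2, the slow and ventricular regulatory chain, had 6, 0, 63, 1 and 0 counts in controls and 0, 0, 0, 0 and 2 counts in Stat5Adipoq libraries. The essential light chains behaved otherwise, since both were present in every library. Myl1, the fast essential chain, had 39.0, 38.6, 111, 32.5 and 50.7 CPM in controls and 46.8, 43.6, 35.4, 36.4 and 37.9 CPM in Stat5Adipoq libraries. Myl3, the slow and ventricular essential chain, had 1.24, 2.63, 5.41, 2.68 and 3.10 CPM in controls and 2.68, 2.11, 3.23, 3.08 and 1.84 CPM in Stat5Adipoq libraries. Control replicate 3 was 2.90 times above the median of the 8 other libraries for Myl1 and 2.04 times for Myl3, against 105 times for Mylpf. Myl1 shares 23.4% of its words with the light chain pseudogene Mylf-ps, and how its counts divide was not tested.

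The remaining fast genes were low outside the 2 high controls. Atp2a1, the calcium pump of the fast fibre reticulum, had 13.3, 5.17, 1084, 1.47 and 91.7 CPM in controls and 11.7, 0.577, 1.20, 4.85 and 5.27 CPM in Stat5Adipoq libraries. Actn3, the Z-disc actinin of fast fibres, Mybpc2, the fast myosin-binding C-protein, and Pvalb, the calcium buffer parvalbumin, were at 103 to 189 CPM in control replicate 3, 5.94 to 10.4 CPM in control replicate 5 and 0.101 to 2.97 CPM in the other 8 libraries. Mybpc1, the C-protein named for slow fibres but also made in fast ones, had 1.53, 0.363, 78.6, 0 and 9.68 CPM in controls and 1.42, 0, 0.185, 0.551 and 0 CPM in Stat5Adipoq libraries. It was the only slow isoform for which control replicate 5 came second. Its share of the Mybpc1 and Mybpc2 counts was 43.3% in control replicate 3 (40.8 to 45.8) and 62.0% in control replicate 5 (54.5 to 68.9), higher in the latter.

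Per kilobase of exon in control replicate 3, the levels of the fast isoforms were led by Atp2a1 at 312 CPM per kilobase, Myh4 at 249, Tnnt3 at 242 and Tnnc2 at 202. The slow isoforms were at 17.4 CPM per kilobase for Mybpc1, 5.20 for Tnnc1, 4.31 for Tnnt1, 3.88 for Myl2, 3.43 for Myh7, 2.65 for Myl3 and 1.67 for Tnni1. Every slow isoform was thus below every fast one on this scale except that Mybpc1 exceeded Myh2 at 12.4 CPM per kilobase, and the single library gives no error for this order.

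Filament and Z-disc genes were high together in the 2 high controls. Acta1, the actin of the skeletal thin filament, had 14.2, 3.08, 785, 0.707 and 70.5 CPM in controls and 7.04, 0.320, 1.38, 4.18 and 3.99 CPM in Stat5Adipoq libraries. Ttn, titin, the spring that spans the sarcomere from Z-disc to M-line, had 5.55, 2.00, 444, 1.011 and 38.1 CPM in controls and 5.53, 0.449, 0.831, 2.86 and 1.52 CPM in Stat5Adipoq libraries. Neb, nebulin, which runs along the thin filament, had 5.36, 1.72, 181, 1.36 and 17.4 CPM in controls and 4.53, 1.35, 2.31, 1.65 and 2.08 CPM in Stat5Adipoq libraries. For these 3 genes control replicate 1 was the third highest library, for Ttn with hardly more than Stat5Adipoq replicate 1. Tpm2, the beta tropomyosin, had a base level in every library, with 15.8, 14.6, 283, 18.2 and 38.4 CPM in controls and 18.4, 13.1, 14.6, 12.3 and 15.7 CPM in Stat5Adipoq libraries. Ldb3, a PDZ and LIM domain protein of the Z-disc, had 3.06, 2.27, 63.7, 2.53 and 7.03 CPM in controls and 2.09, 1.67, 1.20, 1.10 and 1.68 CPM in Stat5Adipoq libraries. It was the only one of the 38 genes for which all controls lay above all Stat5Adipoq libraries. Of all tested genes, 4.39% had no overlap of the genotypes. The actinin Actn2 and the Z-disc genes Tcap, Myoz1, Myot and Xirp2 were at 27.8 to 62.7 CPM in control replicate 3 and at 2.56 to 5.30 CPM in control replicate 5.

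The calcium release genes couple the electrical signal to contraction. Ryr1, the release channel, had 2.87, 0.816, 182, 0.303 and 13.5 CPM in controls and 1.76, 0.192, 0.185, 0.440 and 0.639 CPM in Stat5Adipoq libraries. Casq1, the calcium store of the fast reticulum, had 2.78, 1.18, 90.2, 0.758 and 7.67 CPM in controls and 1.76, 0.577, 0.923, 1.65 and 0.719 CPM in Stat5Adipoq libraries. Cacna1s, the voltage sensor, had 0.479, 0.0907, 43.2, 0 and 3.38 CPM in controls and 0.335, 0, 0.0923, 0.220 and 0.479 CPM in Stat5Adipoq libraries. All 3 showed the same 2 high controls, and their values elsewhere rest on few counts.

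Among the metabolic genes, Ckm, the muscle creatine kinase, had 6.60, 1.45, 305, 0.404 and 26.3 CPM in controls and 3.85, 0.128, 0.185, 1.32 and 0.878 CPM in Stat5Adipoq libraries. Pygm, the muscle glycogen phosphorylase, had 9.09, 6.80, 206, 4.75 and 22.2 CPM in controls and 6.28, 6.34, 5.45, 5.51 and 5.99 CPM in Stat5Adipoq libraries. Eno3, the muscle enolase, had 12.3, 8.89, 129, 9.55 and 21.2 CPM in controls and 11.1, 6.86, 10.98, 10.6 and 9.34 CPM in Stat5Adipoq libraries. Pygm and Eno3 therefore had an even level in the 8 other libraries, where Ckm varied with the contractile genes. Pgam2, a phosphoglycerate mutase, was at 34.0 CPM in control replicate 3, and Ampd1, an AMP deaminase, at 21.3 CPM.

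**Figure D3:**
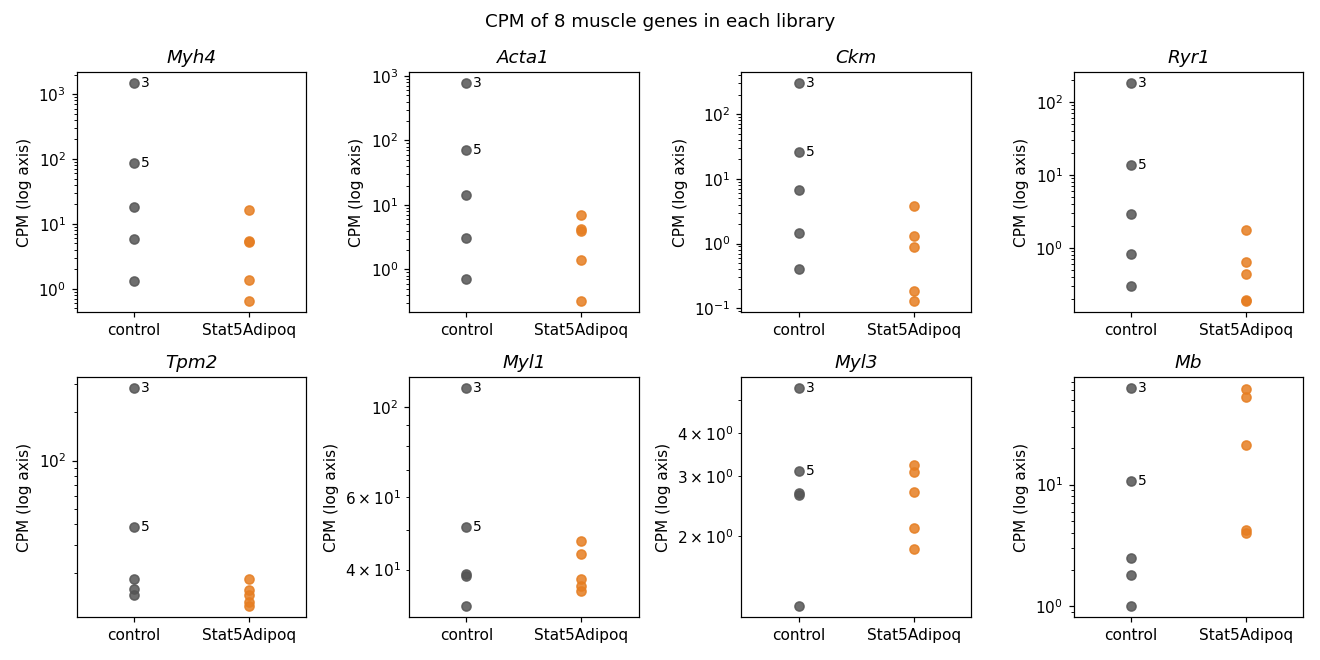
CPM of 8 genes (log axis) in the 5 control and 5 Stat5Adipoq libraries, each point 1 library, with control replicates 3 and 5 numbered. Myh4, Acta1, Ckm and Ryr1 spread over orders of magnitude, Tpm2, Myl1 and Myl3 stay narrow outside control replicate 3, and Mb is also high in Stat5Adipoq libraries, where it reaches 60.5 CPM.

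Mb, the oxygen-binding myoglobin of oxidative muscle and heart, did not follow the other genes. It had 1.82, 0.998, 62.1, 2.48 and 10.8 CPM in controls and 4.27, 4.04, 60.5, 52.2 and 21.2 CPM in Stat5Adipoq libraries. Stat5Adipoq replicates 3, 4 and 5, whose contractile genes were low, were thus above control replicate 5, and Stat5Adipoq replicate 3 was within 2 CPM of control replicate 3. The cosine similarity of its CPM with the summed CPM of the 38 genes was 0.631, the lowest of the 36 members with a mean of at least 10 counts, whose median was 0.999. With all libraries its log2 fold change, Stat5Adipoq over control, was 0.92 with a standard error of 1.02 (adjusted p = 0.745, edgeR quasi-likelihood test). Over the 3 controls other than replicates 3 and 5, Mb was at 0.998 to 2.48 CPM, and all 5 Stat5Adipoq libraries lay above, at 4.04 to 60.5 CPM. The 2 controls left out there are those with the highest Mb and were set aside after these values had been seen, so this is a description with no test. The fitted log2 fold change of Mb without them was 3.89 in edgeR and 4.002 in DESeq2. Among exon bases of Mb, 31.9% lie opposite to exons of other genes, of which Apol6 had 371 to 868 counts per library, and its part in the counts of Mb was not tested.

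The genotypes were compared by edgeR over all 13568 tested genes, of which 178 (1.31%) were called lower and 190 (1.40%) higher in Stat5Adipoq BAT at an adjusted p of 0.05. Of the 38 muscle genes 0 were called, with adjusted p between 0.093 for Myh1 and 0.824 for Myl3. The fitted log2 fold changes were nevertheless low: 37 of 38 were below 0, against 50.8% of all tested genes, and their median was -5.12. The lowest was -5.91 for Ryr1, with a standard error of 1.69. Without control replicate 3, 33 of the 38 genes would pass the filter on low counts, and 28 without control replicates 3 and 5. The genes that would fail were tested only through controls where they are high, so their place among the tested genes rests on those controls. With every gene that had a count tested, the median log2 fold change of the 38 was also -5.12. At an unadjusted p of 0.05, 33 of the 38 were lower by edgeR, against 8.03% of all tested genes, while limma-voom gave 0 calls among them, against 1.37% of all genes called lower, and 0 at an unadjusted p of 0.05, against 6.94%. DESeq2 called 8 lower (Acta1, Ckm, Myh1, Neb, Tcap, Tnnc2, Tnni2 and Myoz1), against 2.45% of all genes, and gave no p for 24 members, which its filter on outlying counts set aside, against 0.663% of all genes.

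The mean control level hid the spread among the controls. For Myh4 the control mean was 322 CPM with an SD of 657 CPM (n = 5) and the Stat5Adipoq mean was 5.83 CPM with an SD of 6.28 CPM (n = 5). In an exact two-sided permutation test of single genes over the 10 libraries, p ranged from 0.0079, the smallest possible, for Ldb3 to 0.817 for Tnnt1. Ldb3 was the only gene of the 38 without overlap of the genotypes, against 4.39% of all tested genes. Without control replicate 4 Pygm also had none, against 5.74% of all genes, and without control replicates 3 and 5 it was Ldb3 and Mb, against 10.1%.

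Without control replicate 3 edgeR called 0 of the 38 genes, against 1.64% of all genes called lower. Their median log2 fold change was then -1.89, and 33 were below 0, against 50.5% of all genes. Without control replicates 3 and 5 it called 0 of the 38 as well, against 1.32% of all genes called lower, with a median of -0.41 and 29 below 0, against 49.6% of all genes. At an unadjusted p of 0.05 edgeR then had 19 and 2 of the 38 genes, against 15.6% and 14.4% of all genes. DESeq2 called Ldb3 and Myoz1 lower without control replicate 3, against 2.42% of all genes, and Mb higher without both, against 2.12%, where the controls left out are those with the highest Mb. For Acta1 the log2 fold change went from -5.72 with all libraries to -2.72 without control replicate 3 and -0.77 without both. For Tpm2 it went from -2.29 to -0.55 and -0.13. For Ldb3 the values were -3.26, -1.22 and -0.73, and the adjusted p from edgeR was 0.115, 0.088 and 0.178.

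**Figure D4:**
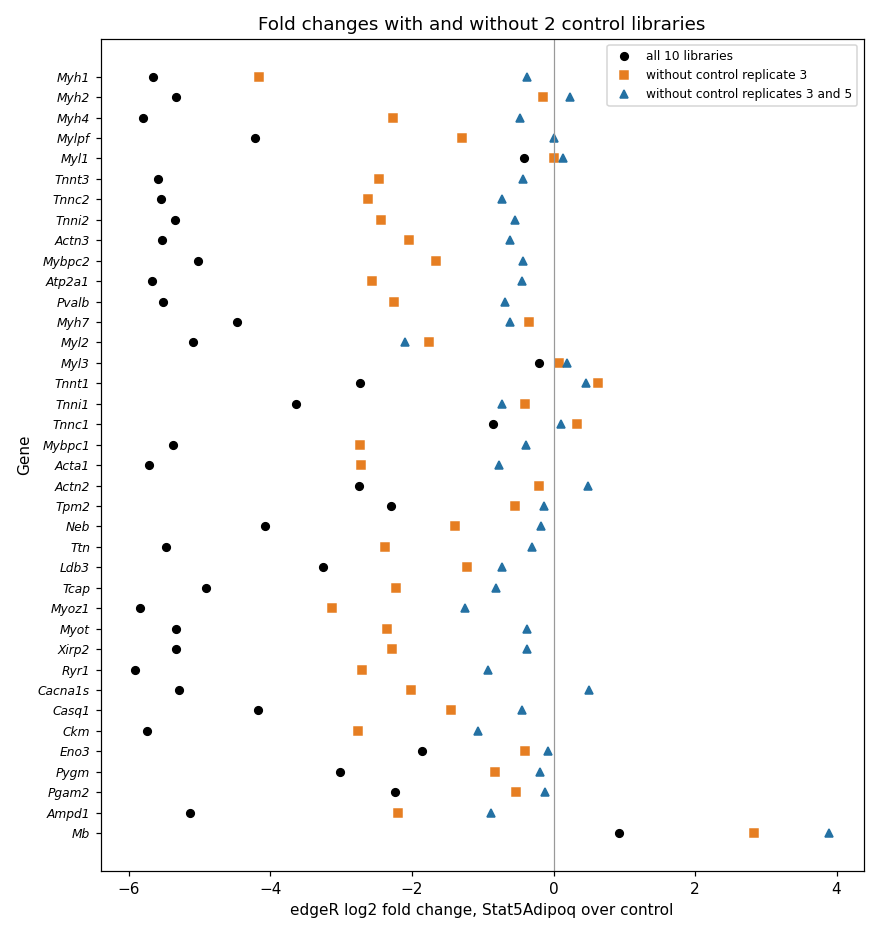
edgeR log2 fold change of each of the 38 genes, Stat5Adipoq over control, with all 10 libraries, without control replicate 3 and without control replicates 3 and 5. The median moves from -5.12 to -1.89 and -0.41 as the 2 controls are set aside, and Mb lies to the right of 0 in all 3 fits.

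A further comparison asked in what proportion control replicate 5 shared the high genes of control replicate 3. For each gene the median CPM of the other 8 libraries was subtracted from both, a measure chosen after the values had been seen. The excess in control replicate 5 had a median of 8.06% of that in control replicate 3 over the 38 genes, with quartiles of 5.92% and 8.97%. For 27 genes the ratio was within 1.5-fold of this median, among them all 10 filament and Z-disc genes, all 3 calcium release genes, all 6 metabolic genes and 7 of 12 fast isoforms, but 1 of 7 slow isoforms, Mybpc1. Of the genes with a level of their own in every library, Tpm2 gave 8.69%, Eno3 9.37% and Pygm 8.05% once it was subtracted, while Myl1 and Myl3 lay above the range. The 3 genes above the range were Myh1 at 37.0%, Myl1 at 17.1% and Myl3 at 16.4%. The 8 genes below it were Myh2 at 0.630%, Actn3 at 5.12% and Mybpc2 at 5.13%, beside the slow isoforms Myh7, Myl2, Tnnt1, Tnni1 and Tnnc1, whose excess in control replicate 5 was 0 or below. Scaled by the uncorrected median ratio over the 38 genes, control replicate 5 would hold 82.7 counts of Myh2, 27.6 of Myh7 and 110 of Myh1, and it held 9, 1 and 480. The same scaling gave 8.88 counts of Tnnt1, 7.08 of Myl2 and 5.62 of Tnni1, where 1, 0 and 0 were found.

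**Figure D5:**
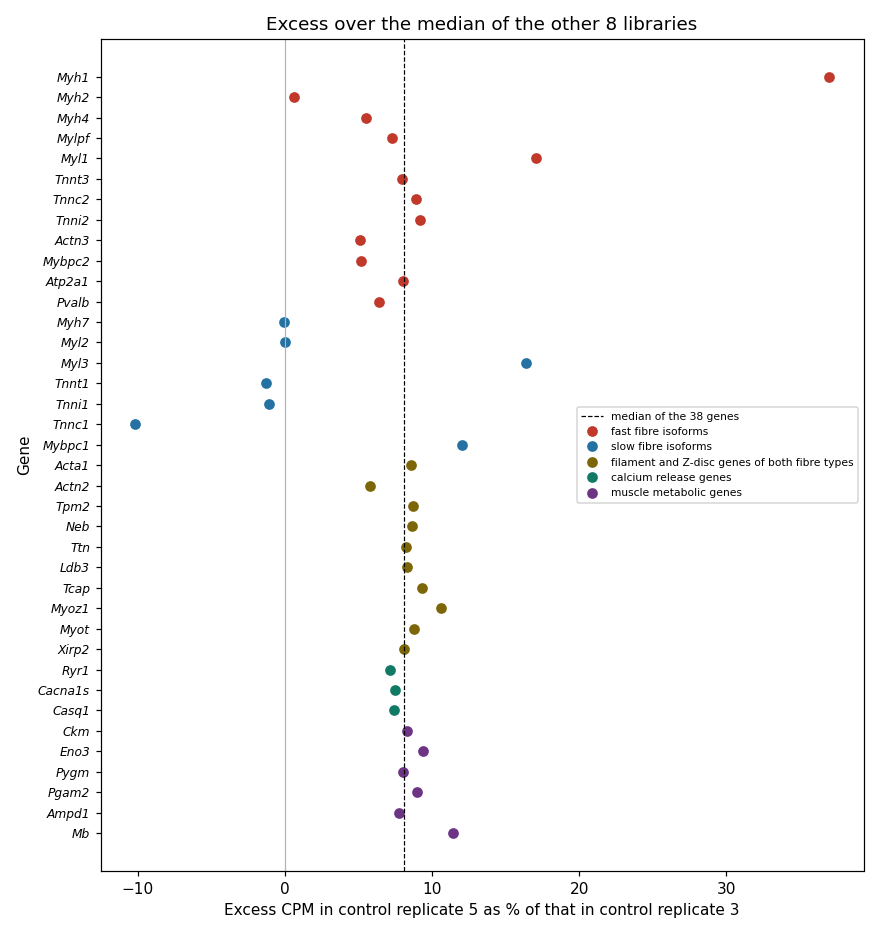
Excess of each gene over the median of the other 8 libraries in control replicate 5, in % of its excess in control replicate 3 (horizontal axis), coloured by group, with the dashed line at the median of 8.06%. Filament, calcium and metabolic genes gather at the line, Myh1 lies at 37.0%, and Myh2 and 5 slow isoforms lie near or below 0.

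Outside the 2 high controls, muscle transcripts were low and uneven. In the other 8 libraries 20 of the 38 genes had a median under 1 CPM, 11 were at 0 in at least 1 library, and 8 were at 1 CPM or more in all 8. The highest of these 8 libraries was control replicate 1 for 28 genes and Stat5Adipoq replicate 1 for 5, so libraries of both genotypes led. Titin counts, for example, were 58 in control replicate 1, 66 in Stat5Adipoq replicate 1 and 7 to 26 in the other 6.

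Other genes of striated muscle were read from a second list of 41. Of these, 39 were highest in control replicate 3 and 23 were second highest in control replicate 5. Of all tested genes, 18.6% were highest in control replicate 3, while the 39 include genes too low to be tested. More than 50% of the CPM lay in control replicate 3 for 25 of the 41. Among the tested genes of this list it was 23, against 1.02% of all tested genes. Of the 37 tested, 33 had a log2 fold change below 0, against 50.8% of all genes, with a median of -2.38. Some, such as Klhl40 with 49 counts in control replicate 3 and 0 to 4 elsewhere, passed the filter on low counts through that library. edgeR called 1 of the 37 lower, against 1.31% of all genes, namely Fhl3, a LIM domain protein, at -1.56 (adjusted p = 0.010). The tested genes outside the 38 whose CPM was most like their sum over the 10 libraries included Scn4a, Hrc, Apobec2, Klhl41, Trim63, Myom2, Ckmt2, Trdn and Klhl31, with cosines of 0.9991 to 0.9995. Among them are the sodium channel of the muscle membrane (Scn4a), sarcomere and reticulum proteins (Myom2, Hrc, Trdn) and a ubiquitin ligase of muscle (Trim63), and the measure rests mainly on control replicate 3.

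Markers of neighbouring cell types were read in the same libraries. Cardiac markers summed to 0.160 to 0.907 CPM in all libraries, with 0 or 1 counts of cardiac troponin Tnnt2 in each library and 0 of Nppb in all. In control replicate 3, Myh6 had 2 counts, Tnni3 had 2 and Nppa had 1. The part of heart in the slow isoforms was not tested. Smooth muscle markers were at 119 to 167 CPM in controls and 106 to 152 CPM in Stat5Adipoq libraries, and 0 of 6 were highest in control replicate 3. The muscle regulatory factors Myod1, Myog, Myf5 and Myf6 had 1, 1, 2 and 19 counts in control replicate 3, and the satellite cell factor Pax7 had 4. The embryonic and neonatal chains Myh3 and Myh8 had 3 and 2 counts there. Markers of liver moved in part with the muscle genes: 8 of 8 were highest in control replicate 3, where they summed to 91.8 CPM against 0.808 to 1.72 CPM in the other controls and 0.771 to 5.32 CPM in Stat5Adipoq libraries. In control replicate 5, the second library for muscle genes, liver markers were at 0.913 CPM, and the part of other tissues in the muscle values was not tested.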

How the data were processed

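RNA-Seq libraries of 50-base single reads were made from BAT with a stranded mRNA kit. According to the submitters' processing notes and the methods, the authors aligned reads to GRCm38 (mm10) with STAR 2.5.0b and counted them over exons with featureCounts 1.5.0-p1, and the strand setting of the counting is not given in the sources used here. The deposited values are raw counts per gene, not normalized. The deposited table of the comparison, which holds fold changes and p-values from DESeq2 1.16.1, was used only to match symbols and identifiers, and 3 tables that are subsets of it were not used.

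Genes were tested where the sum of counts divided by size factors was above 45. Genotypes were compared with edgeR 4.0.16 (TMM, quasi-likelihood F test, no covariate) in R 4.3.3, with Benjamini-Hochberg adjustment over all 13568 genes and a threshold of 0.05. DESeq2 1.42.0 and limma 3.58.1 were alternatives, and the procedure was tested on simulated data. Libraries were grouped by genotype from their labels, which do not say whether replicates are separate animals, so p-values measure the spread between these libraries. Single genes were compared by exact permutation tests of log2 CPM with a prior count of 1. Values per library were printed for up to 4 genes with the highest mean CPM in each group, all heavy chains and troponins, and others where a result rests on them. Myl2, Mylpf, Ldb3, Pgam2, Ampd1 and the remaining Z-disc genes were added after their values were seen.

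Of the 10 genes with CPM most like the summed CPM of the 38, 1 is not reported here. The 38 genes and all lists were chosen with earlier results of these data known. Chi-square tests over genes found no pair of the 45 library pairs to agree within sampling noise (5.01 to 45.3 per degree of freedom). Positions and promoter windows are those of RefSeq for GRCm38.p6, and protein sequences were not used here. Exon lengths, overlaps and 50-base words shared with other transcripts were taken from GENCODE for GRCm38. Alternatives comprised other scalings, filters and tools, a replicate block and leaving out each library, and fits without control replicates 3 and 5 together, and DESeq2 fits without 1 or both of them, were added after the data were seen.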

Additional observations from a re-analysis of the deposited data

Results flagged for a closer look

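In each group of 5 libraries the highest or lowest CPM of each gene was compared with the nearest other value, and the gap was set against the whole range. Of 76 groups examined, 40 held a library beyond the critical value of 0.71. Chance flags about 1 in 20 independent groups, or 3.8 of 76. These genes share the same libraries, vary together and were chosen with earlier results known, so the 40 is a description and no test. Control replicate 3 stood out for 36 of the 38 genes, that is for all except Myh1 and Myl3. Among the fast isoforms these were 88.5 CPM for Myh2, 1496 CPM for Myh4, 158 CPM for Mylpf, 111 CPM for Myl1, 382 CPM for Tnnt3, 162 CPM for Tnnc2, 147 CPM for Tnni2, 189 CPM for Actn3, 103 CPM for Mybpc2, 1084 CPM for Atp2a1 and 154 CPM for Pvalb. Among the slow isoforms they were 29.6 CPM for Myh7, 7.57 CPM for Myl2, 9.5 CPM for Tnnt1, 6.01 CPM for Tnni1, 5.41 CPM for Tnnc1 and 78.6 CPM for Mybpc1. The filament and Z-disc genes had 785 CPM for Acta1, 41.8 CPM for Actn2, 283 CPM for Tpm2, 181 CPM for Neb, 444 CPM for Ttn, 63.7 CPM for Ldb3, 52.3 CPM for Tcap, 47 CPM for Myoz1, 27.8 CPM for Myot and 62.7 CPM for Xirp2. For calcium release the values were 182 CPM for Ryr1, 43.2 CPM for Cacna1s and 90.2 CPM for Casq1. The metabolic genes had 305 CPM for Ckm, 129 CPM for Eno3, 206 CPM for Pygm, 34 CPM for Pgam2, 21.3 CPM for Ampd1 and 62.1 CPM for Mb. In the Stat5Adipoq group, replicate 1 stood out for Myh2 at 1.09 CPM, for Ryr1 at 1.76 CPM and for Ampd1 at 0.419 CPM, and replicate 5 stood out for Myl2 at 0.160 CPM.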

How the results depend on the processing

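The number of genes called over the whole table was 368, between 185 and 442 when 1 library was left out, and 658 with DESeq2. It was 678 and 573 with DESeq2 without control replicate 3 and without control replicates 3 and 5, and the cause of these differences was not tested. No member was called by edgeR or limma-voom under any alternative. DESeq2 called 8, then 2 without control replicate 3 (Ldb3 and Myoz1, lower) and 1 without both (Mb, higher). Fold changes of the 38 genes kept their sign in all fits that included control replicate 3, of which the stricter filter on low counts tested 20 of the 38. Without control replicate 3 the log2 fold change turned positive for Myl1 (0.0048), Myl3 (0.071), Tnnt1 (0.63) and Tnnc1 (0.33), where it reached -0.57, -0.40, -3.07 and -1.13 at the lowest without another library, and DESeq2 without control replicate 3 gave 0.00055, 0.074, 0.70 and 0.34. Without both controls it was positive in edgeR for Myh2 (0.23), Mylpf (0.0030), Myl1 (0.14), Myl3 (0.20), Tnnt1 (0.46), Tnnc1 (0.11), Actn2 (0.48) and Cacna1s (0.50), and in DESeq2 for Myh2 (0.14), Myl1 (0.13), Myl3 (0.20), Tnnt1 (0.51), Tnnc1 (0.10), Actn2 (0.44) and Cacna1s (0.33). Calls in the second muscle list were 1 in the main comparison and 1 to 2 when 1 library was left out. DESeq2 on all libraries called 3 lower (Apobec2, Fhl3 and Asb2), against 2.45% of all genes. edgeR without control replicate 3 or without both controls called 2, Fhl3 lower and Ankrd23 higher. Of all 13568 genes, these fits called 442 and 337 in either direction, with 1.64% and 1.32% of all genes called lower. DESeq2 called 3 without control replicate 3 (Fhl3 lower, Fhl1 and Ankrd23 higher). Of all 13568 genes it called 678 in either direction there, with 2.42% called lower. Without both controls DESeq2 called 4 (the same and Cmya5, higher). Of all 13568 genes it then called 573 in either direction, with 2.12% called higher. Genes among the 38 without overlap of the genotypes were 1 (Ldb3), against 4.39% of all genes. There were 2 without control replicate 4 (with Pygm), against 5.74% of all genes, or without both high controls (with Mb), against 10.1%. The share of Myh4 in control replicate 3 was 87.9% per exon length.

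A replicate block left 0 members called, with a lowest adjusted p of 0.051 from edgeR. It gave 273 calls over all genes and 3 in the second muscle list (Fhl3, Trim54 and Smpx, all lower). Libraries with the same number correlated between -0.23 and 0.10, and 1 of 5 correlated best with its own number. These values gave no sign of pairing by number, but 5 pairs are too few to exclude a weak one. Without control replicate 3, 33 of the 38 genes would pass the filter on low counts, and 28 without control replicates 3 and 5, so the depth outside these libraries limits what can be said of the rest.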

Other observations

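The genes whose CPM was most like that of Mb were looked up after its values had been seen. They were Rragd, a subunit of a GTPase complex at the lysosome, with a cosine of 0.914, followed by 1700071M16Rik at 0.909, 4930415O20Rik at 0.894, Pitpnm2os1 at 0.885 and Smtnl2 at 0.883, and none belongs to the muscle lists. Rragd had 21, 28, 116, 77 and 41 counts in controls and 45, 40, 73, 91 and 98 counts in Stat5Adipoq libraries.

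Myf6, the regulatory factor kept in mature fibres, had 19 counts in control replicate 3, 2 in control replicate 5 and 0 in the other 8 libraries. Chrna1, a subunit of the acetylcholine receptor of muscle, had 17 and 3 counts in these libraries and 0 elsewhere. Cox6a2, the muscle isoform of a cytochrome oxidase subunit, was at 13.7 CPM in control replicate 3, 1.74 CPM in control replicate 5 and at most 0.251 CPM in the other 8. Tropomyosin Tpm1 was present in every library, at 215 CPM in control replicate 3 and 71.5 CPM in control replicate 5.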
